A study of Mus musculus with 44 samples.

Results

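Small RNA of the mouse hypothalamus was compared between obese mice given an oligonucleotide against miR-132 and lean mice on regular chow. The libraries were those labelled batch 2, the labelled batch that holds both groups. They comprise 8 libraries of the treated obese group (AM132, replicates 5 to 12) and 4 of the lean group (RCD, replicates 9 to 12), so 12 of the 44 libraries of the series. The members were chosen by these labels alone, and every miRNA and every transfer RNA fragment (tRF) in the 2 deposited count tables was considered. All mice were C57Bl/6J. The AM132 mice had eaten a high fat diet for 11 weeks until they were obese (diet-induced obesity). They then received a 16-nucleotide oligonucleotide, protected by locked nucleic acids and complementary to mature miR-132, by vein at 3.3 mg/kg on 3 successive days, and tissue was taken 7 days after treatment. The RCD mice were of matched age and ate regular chow, and the study's design text describes no injection for them. Diet and obesity, the injection, and the oligonucleotide itself therefore differ together between the groups and cannot be told apart in this comparison. Batch 2 also holds 8 libraries of obese mice injected at the same dose with a 15-nucleotide control oligonucleotide against the primate miR-608 (AM608). This group entered the fits, where it also shaped which features had enough counts, the scaling and the estimate of the spread, and its values are given where they help place a member. Sex, exact age and the number of animals per library are not given in the labels, so the p-values measure the spread between these libraries.

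MicroRNAs are short RNAs that guide a silencing complex to matching sites in messenger RNAs, chiefly through the seed, the bases near the 5′ end. Each hairpin precursor can give a 5p and a 3p arm, of which the more abundant is often called the guide and the other the passenger. MiR-132 is made with miR-212 from a shared primary transcript that neuronal activity induces through the transcription factor CREB, and it is known for roles in dendrite growth, synaptic plasticity and cholinergic signalling. An oligonucleotide against a mature miRNA pairs with that strand and leaves the opposite arm of the hairpin without a match. Transfer RNA fragments are cut from transfer RNAs. They are grouped into 5′-halves and 3′-halves, shorter or longer 5′-tRFs and 3′-tRFs, and internal fragments (i-tRFs).

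The sequences below are those on which the miRNA results turn. They were taken from RefSeq (build GRCm38.p6), run 5′ to 3′, and have the seed, bases 2 to 8, in capitals. The targeted strand and its closest relative stand first, because they show how far the target's sequence is shared.
miR-132-3p: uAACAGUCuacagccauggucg
miR-212-3p: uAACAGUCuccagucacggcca
miR-132-5p: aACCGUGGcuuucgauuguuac
miR-34c-3p: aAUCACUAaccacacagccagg
miR-101a-3p: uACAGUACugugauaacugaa
miR-101b-3p: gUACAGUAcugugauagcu
let-7b-3p: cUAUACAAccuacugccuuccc
let-7a-1-3p: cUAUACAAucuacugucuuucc
miR-455-3p: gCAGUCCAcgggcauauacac
miR-132-3p and miR-212-3p have the same seed, and 17 of their 22 bases are identical, the first 9 of them in 1 run. The listed sequence of miR-101b-3p starts 1 base ahead of that of miR-101a-3p, and the pair shares a run of 15 bases. In the build named above, the hairpins Mir132 (chr11:75173682-75173747) and Mir212 (chr11:75173388-75173478) lie on the plus strand within an intron of the noncoding gene 1700016P03Rik. Mir34c (chr9:51103034-51103110) is on the minus strand and lies within an intron of Btg4, which is transcribed from the opposite strand. Mir101a (chr4:101346945-101347027) lies in an exon of the noncoding gene E130102H24Rik, and Mir101b (chr19:29135279-29135375) in an intron of Rcl1.

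The 12 libraries held 3077067 to 5997234 miRNA counts and 60884 to 160383 tRF counts each. Levels are given as CPM (reads of a feature per 1000000 reads of its table), scaled between libraries by the trimmed mean of M-values (TMM), with the SD over libraries. Fold changes are log2 values from edgeR, AM132 minus RCD, with their standard error (SE). Library AM132 6 stood apart from the other 11. It scored 21.7 on the first principal component of the miRNA table, which held 57.7% of the variance, while the other 11 scored from -7.25 to 4.88. Its values are given separately wherever they bear on a result. Brain miRNAs were abundant in every library: the 20 tested members of a neuronal list summed to 314078 to 410938 CPM in AM132 and 323576 to 350879 CPM in RCD. The lowest of these sums was that of AM132 6. The 7 tested members of an oligodendrocyte list (miR-219, miR-338 and others) summed to 2685 to 4031 CPM in AM132 and 3486 to 3679 CPM in RCD.

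The targeted strand was lower in all 8 AM132 libraries than in any RCD library. Its level in AM132 5 to 12 was 437, 74.3, 594, 441, 388, 591, 612 and 472 CPM in turn. In RCD 9 to 12 it was 787, 768, 838 and 748 CPM. The lowest AM132 value was that of AM132 6, the highest stayed below the lowest RCD value, and the RCD libraries lay close together. The means were 451 ± 174 CPM (SD, n = 8) and 785 ± 38.5 CPM (SD, n = 4). On the log2 CPM scale miR-132-3p was 8.62 ± 0.997 (SD) in AM132 and 9.62 ± 0.0699 in RCD, a difference of -0.997, with p = 0.00404 (exact permutation test over libraries, two-sided, 8 against 4). That is the smallest p that the 495 possible splits allow, and it came to 0.00606 after Benjamini-Hochberg adjustment over the 3 single miRNA values tested in this way. In the edgeR fit across all miRNAs the fold change of miR-132-3p was -0.80 (SE 0.29), with adjusted p = 0.488, and did not pass the threshold of 0.05. Without AM132 6 the edgeR fold change was -0.64 (SE 0.11) with adjusted p = 0.00716, and the log2 CPM difference was -0.66 (exact permutation p = 0.00606).

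AM132 6 had 253 miR-132-3p reads among 4063385, which is 62.3 CPM before scaling (95% Wilson interval 55.0 to 70.4, covering counting error only). The next lowest library, AM132 9, had 352 CPM before scaling. In the AM608 group, which received the control oligonucleotide, miR-132-3p was at 754 ± 78.1 CPM (SD, n = 8), and its edgeR fold change against RCD was -0.06 (SE 0.30, adjusted p = 0.985).

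Mir132's opposite arm did not separate the groups. MiR-132-5p ranged from 1088 to 1426 CPM in AM132 and was 1510, 1167, 1353 and 1192 CPM in RCD 9 to 12. The ranges of the groups overlapped. Its means were 1238 ± 100 CPM (SD, n = 8) and 1305 ± 159 CPM (SD, n = 4), and its edgeR fold change was -0.08 (SE 0.08, adjusted p = 0.791). On the log2 scale the 3p arm relative to the 5p arm of miR-132 stood at -1.65 ± 0.927 (SD) in AM132 and -0.73 ± 0.147 in RCD. The ratio differed by -0.93 (exact permutation p = 0.00404, two-sided, 8 against 4, adjusted 0.00606 over the 3 values), and all AM132 ratios lay below all RCD ratios. AM132 6 had the lowest ratio, and without it the difference was -0.61 (exact permutation p = 0.00606).

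**Figure D1:**
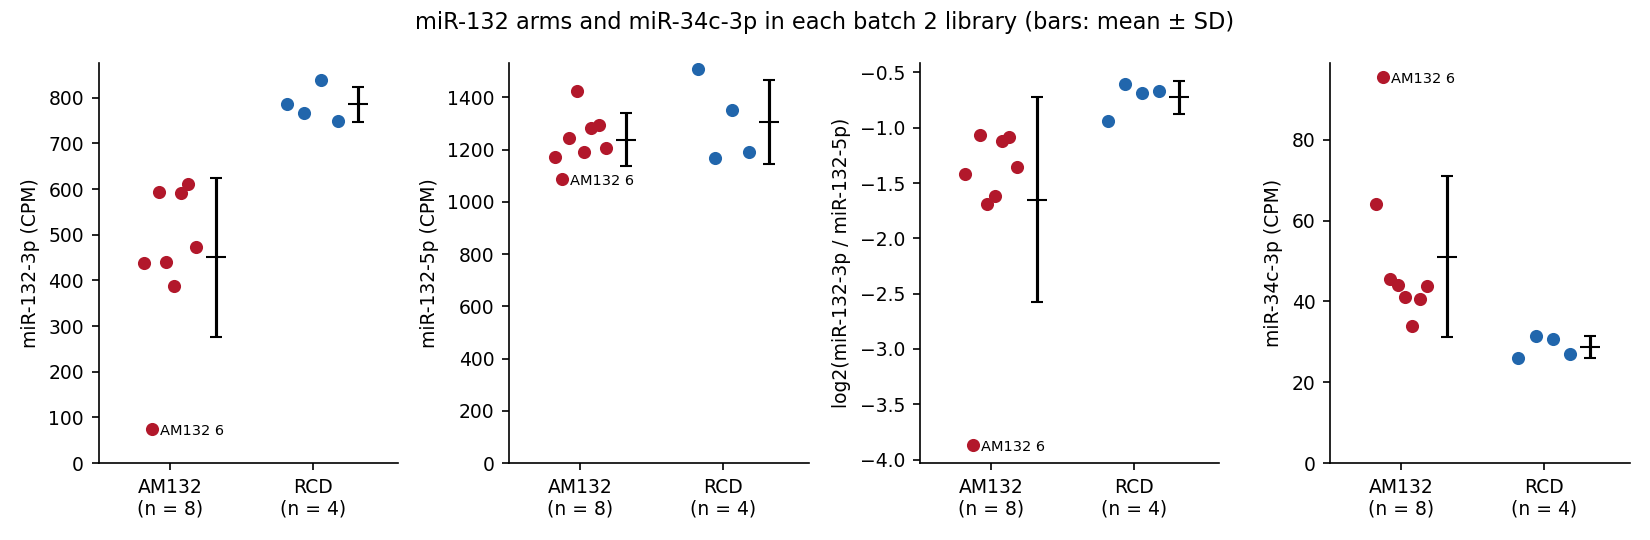
Levels of miR-132-3p, miR-132-5p and miR-34c-3p (CPM) and the log2 ratio of the miR-132 arms in each of the 8 AM132 and 4 RCD libraries, as points, with the mean and SD as bars. All AM132 points for miR-132-3p, its arm ratio and miR-34c-3p lie on 1 side of the RCD points, those of miR-132-5p do not, and AM132 6, at 74.3 CPM of miR-132-3p, is marked.

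The ratio of the 2 arms was computed in the same way for all 175 hairpins with both arms tested. With limma, 0 of 175 ratios passed the adjusted threshold (0% called), while 21 (12% of those tested) had an unadjusted p under 0.05. The miR-132 ratio was the 1 ratio (0.571%) with all AM132 libraries below all RCD libraries, and the miR-34c ratio was the 1 ratio (0.571%) with all above. The limma adjusted p of the miR-132 ratio was 0.376 with all libraries and 0.0393 without AM132 6.

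MiR-212, the cluster partner, did not separate the groups on either arm. MiR-212-3p, which has the seed of the target, was at 46.9 ± 8.01 CPM (SD, n = 8) in AM132 and 53.4 ± 9.76 CPM (SD, n = 4) in RCD. Its edgeR fold change was -0.19 (SE 0.14) with adjusted p = 0.684. AM132 6 had the lowest value, 33.8 CPM, and RCD 9 the lowest of its group, 39 CPM, so the ranges overlapped. MiR-212-5p was at 1452 ± 181 CPM (SD, n = 8) against 1414 ± 106 CPM (SD, n = 4), a fold change of 0.04 (SE 0.09, edgeR adjusted p = 0.916).

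The series' title names miR-194-5p, a miRNA known from liver and gut epithelium. In the hypothalamus its level ranged from 306 to 454 CPM in AM132, and was 371, 369, 373 and 322 CPM in RCD 9 to 12. The AM132 range enclosed the RCD range, and its top value was that of AM132 6. The log2 CPM difference was -0.05 (exact permutation p = 0.618, two-sided, 8 against 4), and the edgeR fold change was -0.04 (SE 0.09) with adjusted p = 0.908. Without AM132 6 the log2 CPM difference was -0.11 (exact permutation p = 0.0909). Its cluster partner miR-192-5p was at 271 ± 59.0 CPM (SD, n = 8) against 231 ± 15 CPM (SD, n = 4), with 409 CPM in AM132 6. The related miR-215-5p was scarce, at 3.90 ± 1.00 CPM (SD, n = 8) and 4.36 ± 0.80 CPM (SD, n = 4).

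Across the miRNA table, 599 of 1978 listed miRNAs had enough counts to be tested. EdgeR called 0 of 599 (0% called), and the smallest adjusted p was 0.488. At an unadjusted p under 0.05 there were 59 miRNAs, 9.85% of those tested, of which 32 (5.34%) had higher and 27 (4.51%) lower fitted levels in AM132. DESeq2 called 0, with 47 at an unadjusted p under 0.05, and limma with library weights called 0, with 79. In simulated counts of the same design, 92.73% of the miRNAs changed by a log2 value of 1 were recovered. Of those changed by 0.5, 55.81% were recovered. EdgeR called 156 of the 587 simulated miRNAs, and an adjusted threshold is easier to pass when many miRNAs change. These percentages therefore cannot be carried over to the real table, and its 0 calls do not exclude changes of these sizes. There miR-132-3p, with a fold change of -0.80, had an edgeR adjusted p of 0.488. Fold changes were above 0 for 323 of 599 miRNAs (53.9%). When the libraries were scaled on both tables together, 263 of 599 (43.9%) were above 0.

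**Figure D2:**
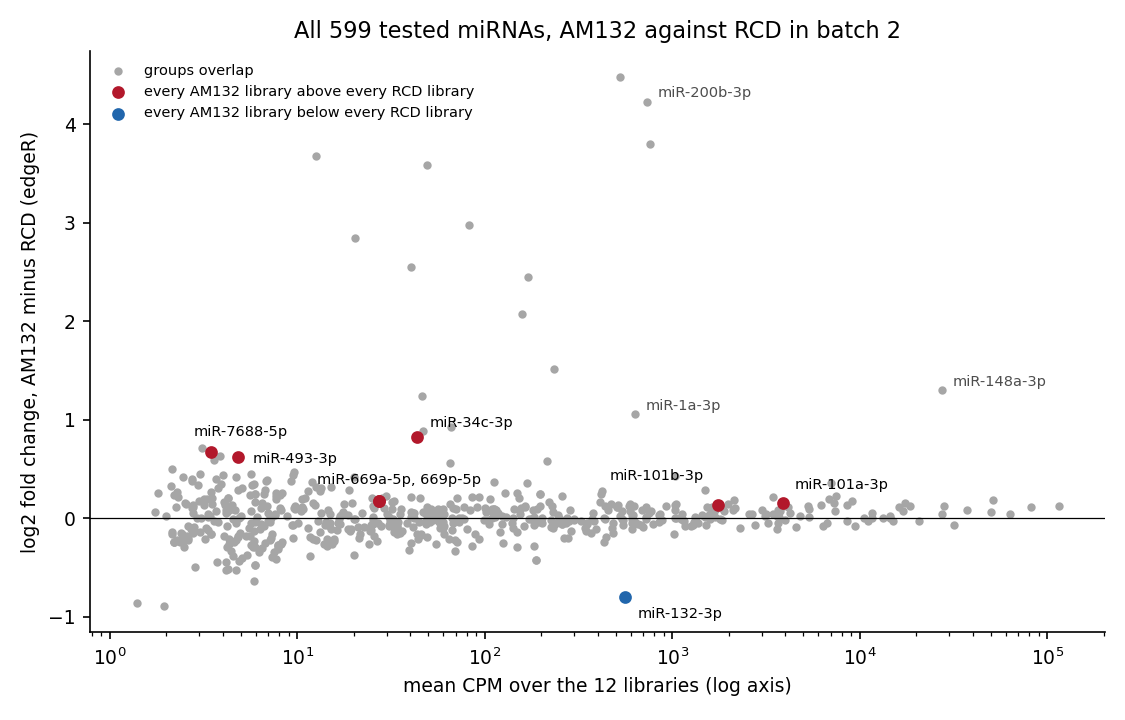
Log2 fold change (AM132 minus RCD, edgeR) of the 599 tested miRNAs against their mean level over the 12 libraries (CPM, log axis). Coloured points mark the 7 miRNAs with every AM132 library above every RCD library and miR-132-3p, the 1 with every AM132 library below; the miR-200 members, miR-148a-3p and miR-1a-3p are grey because their groups overlap.

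MiR-132-3p was the 1 miRNA (0.167%) whose AM132 libraries all lay below all RCD libraries. Another 7 (1.17%) had all AM132 libraries above all RCD libraries: miR-34c-3p, miR-101a-3p, miR-101b-3p, miR-493-3p, miR-7688-5p, and miR-669a-5p with miR-669p-5p. The last 2 have the same count in every library and so carry 1 measurement. Together 8 of 599 (1.34%) did not overlap in either direction. MiR-493-3p and miR-7688-5p were at means under 6 CPM in both groups. These miRNAs were named because their groups did not overlap, and their separation is given as a description.

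MiR-34c-3p, the less abundant arm of a miRNA made in multiciliated cells and in neurons, had the smallest p of the table. Its level in AM132 5 to 12 was 64.0, 95.5, 45.6, 44.2, 41.1, 33.9, 40.5 and 43.8 CPM. In RCD 9 to 12 it was 25.9, 31.4, 30.64 and 27.1 CPM. All AM132 libraries lay above the RCD libraries, with AM132 6 and AM132 5 highest. The means were 51.1 ± 19.9 CPM (SD, n = 8) and 28.8 ± 2.67 CPM (SD, n = 4), and the edgeR fold change was 0.83 (SE 0.22, adjusted p = 0.488). Without AM132 6 the edgeR fold change was 0.64 (SE 0.15, adjusted p = 0.146). Without AM132 6, AM132 5 and AM608 5, the 3 libraries richest in the miR-200 family, it was 0.52 (SE 0.13, edgeR adjusted p = 0.159). Its DESeq2 adjusted p with all libraries was 0.0643, the smallest of that test.

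The AM608 libraries had 23.5 ± 4.27 CPM of miR-34c-3p (SD, n = 8), and their fold change against the same RCD libraries was -0.29 (SE 0.21, edgeR adjusted p = 0.843). The abundant arm overlapped between the groups: miR-34c-5p ranged from 1239 to 1696 CPM in AM132 and was 1310, 1563, 1494 and 1548 CPM in RCD 9 to 12. The log2 ratio of the 3p to the 5p arm of miR-34c was -4.94 ± 0.561 (SD, n = 8) in AM132 and -5.68 ± 0.103 (SD, n = 4) in RCD. Its neighbour on the same primary transcript, miR-34b-5p, lay in the other direction, at 51.8 ± 5.88 CPM (SD, n = 8) against 62.0 ± 8.42 CPM (SD, n = 4). The fold change of miR-34b-5p was -0.26 (SE 0.10, edgeR adjusted p = 0.488). In AM608 it was also -0.26 against the same RCD libraries (SE 0.10, edgeR adjusted p = 0.799).

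The list of choroid plexus and ciliated cell miRNAs, to which miR-34c belongs, summed to 4905 to 6224 CPM in AM132 and 5283 to 5804 CPM in RCD. Of its 10 tested members 6 had higher and 4 lower fitted levels, with a median of 0.06 beside 0.01 over all miRNAs. Of the miR-449 family, which marks multiciliated cells, miR-449a-5p had 8 to 25 counts in AM132 and 16 to 31 counts in RCD, with a fold change of -0.23 (SE 0.26, edgeR adjusted p = 0.800). MiR-449c-5p had 0 to 3 counts in a library, and miR-449a-3p and miR-449b were at 0 counts in all 12. The part of ciliated tissue in the miR-34c-3p values was not tested.

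The 2 abundant miR-101 members lay slightly but wholly above RCD. They belong to a family known for targeting the Polycomb methyltransferase Ezh2. MiR-101a-3p was at 3757 to 4218 CPM in AM132 and at 3612, 3694, 3421 and 3690 CPM in RCD 9 to 12. The groups did not overlap, and AM132 5 came nearest to RCD. Its fold change was 0.15 (SE 0.05, edgeR adjusted p = 0.488). MiR-101b-3p was at 1722 to 1910 CPM in AM132 and at 1600, 1666, 1606 and 1660 CPM in RCD 9 to 12. The groups did not overlap here either, and the fold change was 0.14 (SE 0.04, edgeR adjusted p = 0.488). The scarce miR-101c, at 7.30 and 7.19 CPM, had a fold change of 0.00 (SE 0.27). Leaving out AM132 6 gave 0.15 for both abundant members.

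The passenger arms of let-7, the family that is abundant in differentiated neurons, had mostly lower fitted levels. Of 12 tested passenger arms 9 were lower and 3 higher, with a median of -0.12. Over all miRNAs 276 of 599 were lower, with a median of 0.01. At an unadjusted p under 0.05 in edgeR 3 passenger arms were lower and 1 higher, beside 4.51% and 5.34% of all miRNAs. Let-7b-3p was at 18.3 ± 3.6 CPM (SD, n = 8) against 23.7 ± 2.72 CPM (SD, n = 4), a fold change of -0.37 (SE 0.13, edgeR adjusted p = 0.488). Let-7a-1-3p was at 149, 67.9, 173, 160, 197, 224, 202 and 180 CPM in AM132 5 to 12, and at 236, 241, 221 and 205 CPM in RCD 9 to 12. Its groups overlapped in AM132 10 only, and AM132 6 was far below the rest. The fold change of let-7a-1-3p was -0.42 (SE 0.18, edgeR adjusted p = 0.488) and -0.30 without AM132 6. Let-7c-2-3p has nearly the same counts, so these 2 names carry about 1 measurement.

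The 5 tested miRNAs with the let-7 passenger seed UAUACAA, shown above for let-7b-3p and let-7a-1-3p, all had lower fitted levels, with a median of -0.37. They include let-7c-2-3p, so they are not 5 separate measurements. AM608 had 25.8 ± 2.83 CPM of let-7b-3p (SD, n = 8), so the fold change of AM608 against RCD was 0.12 (SE 0.13, edgeR adjusted p = 0.901). Of the 10 tested let-7 guide arms 9 had higher fitted levels, with a median of 0.06, and 7 of 10 when the libraries were scaled on both tables together. Let-7a-5p, for example, was at 16536 ± 1133 CPM (SD, n = 8) against 15294 ± 1167 CPM (SD, n = 4). Neither arm's list held a call.

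The remaining miRNAs of smallest p were each at adjusted p = 0.488 in edgeR, and their groups overlapped. MiR-455-3p, from an intron of the collagen gene Col27a1 (mature sequence at chr4:63256904-63256924, plus strand), was at 63.8 ± 7.81 CPM (SD, n = 8) against 80.0 ± 10.2 CPM (SD, n = 4). Its fold change was -0.33 (SE 0.11), and all 8 AM132 libraries lay below the RCD mean. MiR-598-3p was at 3617 ± 287 CPM against 3110 ± 196 CPM (SD, n = 8 and 4), a fold change of 0.22 (SE 0.08). MiR-30d-5p, of the miR-30 family, was at 17990 ± 1421 CPM against 16152 ± 880 CPM (SD, n = 8 and 4). MiR-1843a-3p was at 74.0 ± 5.95 CPM against 64.0 ± 2.82 CPM, and miR-667-3p, of the imprinted Dlk1-Dio3 region, at 66.7 ± 8.56 CPM against 78.9 ± 9.64 CPM (SD, n = 8 and 4).

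MiRNAs of neurons had small fitted differences of both signs. Of 20 tested members 9 had higher and 11 lower fitted levels, with a median of -0.00 beside 0.01 over all 599. MiR-9-5p, a miRNA of neural progenitors and neurons, had a fold change of 0.12 (SE 0.06), and miR-124-3p, the miRNA most characteristic of neurons, -0.11 (SE 0.09). The 2 members at an unadjusted p under 0.05 in edgeR were both 3p arms of miR-129. MiR-129-1-3p was at 79.9 ± 8.64 CPM (SD, n = 8) against 96.9 ± 11.3 CPM (SD, n = 4), a fold change of -0.28 (SE 0.11, edgeR adjusted p = 0.488). MiR-129-2-3p had -0.24 (SE 0.11), while the abundant miR-129-5p had 0.12 (SE 0.09).

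Among miRNAs of hypothalamic peptide circuits, 5 of 8 had higher fitted levels, with a median of 0.03, or -0.01 when the libraries were scaled on both tables together. MiR-7a-5p, which is enriched in neuroendocrine cells of the hypothalamus and pituitary, was at 118218 ± 15939 CPM (SD, n = 8) against 108120 ± 8115 CPM (SD, n = 4). Its fold change was 0.13 (SE 0.13, edgeR adjusted p = 0.765). MiR-383-5p was at 1880 ± 47.9 CPM against 1741 ± 156 CPM (SD, n = 8 and 4), a fold change of 0.11 (SE 0.06). The imprinted Dlk1-Dio3 cluster, a large group expressed in neurons, had 38 higher and 43 lower of 81 tested members, with a median of -0.01. Within it miR-409-3p had 0.29 (SE 0.11) and miR-543-5p -0.52 (SE 0.18, edgeR adjusted p = 0.488).

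Lists with a link to metabolism were uneven. Of 14 tested miRNAs of energy balance and insulin sensitivity 10 had higher fitted levels, with a median of 0.23. The median was -0.01 without AM132 6, and -0.10 without AM132 6, AM132 5 and AM608 5. This list shares members with the pituitary list given below, among them miR-200b-3p and miR-200c-3p. The fold change of miR-200c-3p, 4.48 (SE 2.21), was the largest in both lists. MiR-103-3p and miR-107-3p, which are known to restrain insulin sensitivity, had -0.10 (SE 0.05) and -0.15 (SE 0.09). MiR-342-3p was at 425 ± 43.8 CPM (SD, n = 8) against 482 ± 45.9 CPM (SD, n = 4), a fold change of -0.18 (SE 0.08, edgeR adjusted p = 0.488). MiR-33-5p, which represses the cholesterol exporter Abca1, had 0.02 (SE 0.16).

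**Figure D3:**
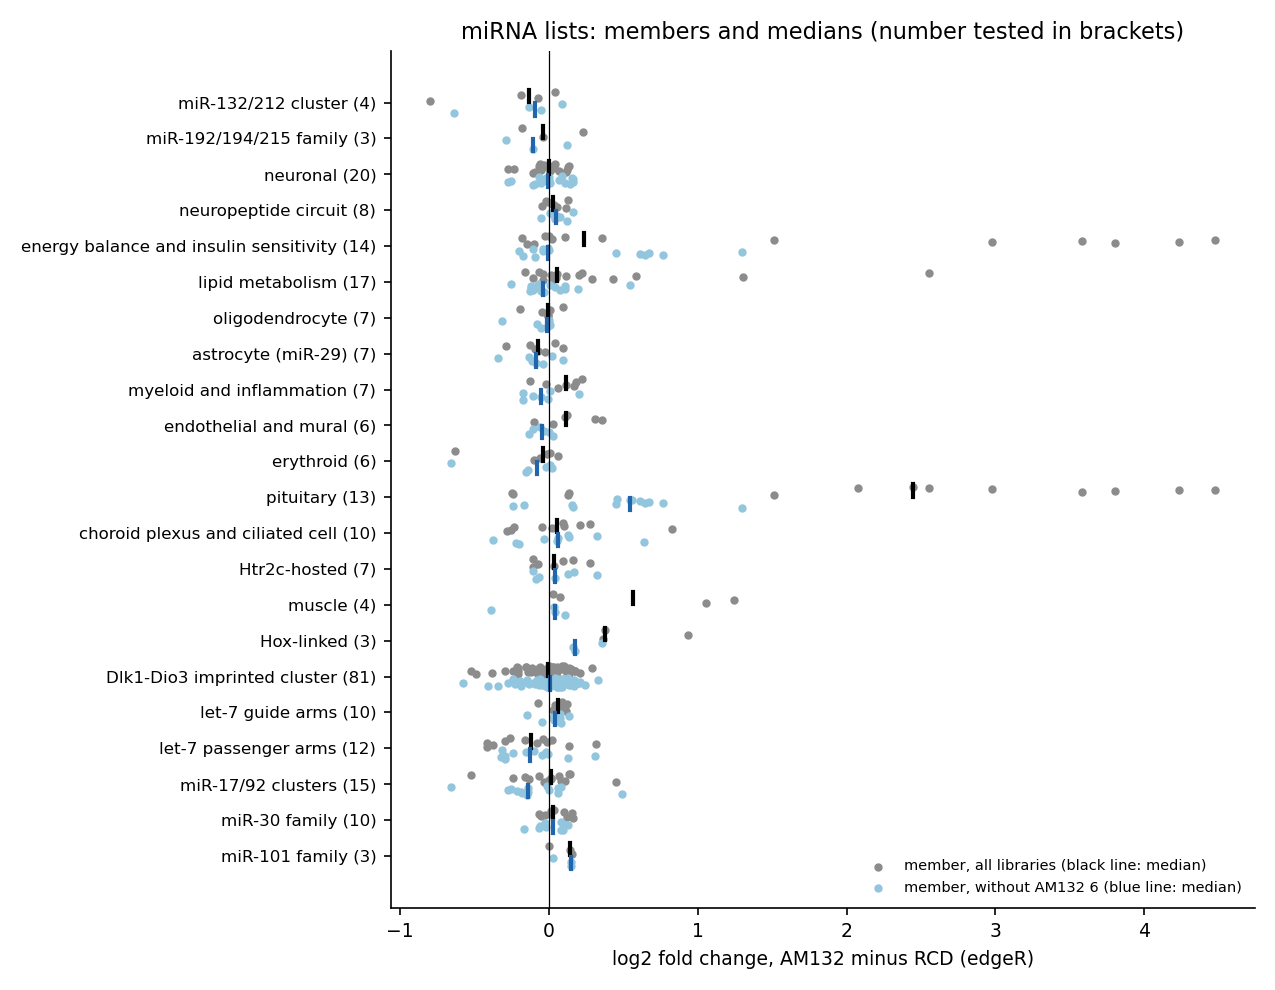
Log2 fold change (AM132 minus RCD, edgeR) of each tested member of 22 miRNA lists, as points, and the list medians, as short lines, with all libraries (grey and black) and without AM132 6 (blue). The pituitary, energy balance, lipid metabolism, muscle and Hox-linked lists have members far to the right with all libraries, and the pituitary median is 2.45 with them and 0.55 without AM132 6.

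The miRNAs with the largest fold changes in the table were those of epithelial and endocrine tissue. Of 13 tested miRNAs of a pituitary list 11 had higher fitted levels, with a median of 2.45 with all libraries, 0.55 without AM132 6, and 0.13 without AM132 6, AM132 5 and AM608 5. None of the 13 passed the adjusted threshold of edgeR. MiR-200b-3p, an epithelial miRNA that in the pituitary supports luteinizing hormone production, was at 288, 7859, 45.3, 81.6, 89.2, 95.2, 19.1 and 54.4 CPM in AM132 5 to 12. In RCD 9 to 12 it was 73.2, 80.0, 26.8 and 47.4 CPM. AM132 6 stood far above, AM132 5 next, and the other 6 overlapped with RCD. Its edgeR fold change was 0.77 (SE 1.16, adjusted p = 0.814) without AM132 6, and 0.17 (SE 0.57) without AM132 6, AM132 5 and AM608 5. MiR-375-3p, of endocrine cells, had 593 CPM in AM132 6 and 1116 CPM in AM132 5, against 79.5 to 144 CPM in the other 6 AM132 libraries and 99.8 to 107 CPM in RCD.

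The sensory and epithelial cluster miR-183/96/182 was also highest in AM132 6. MiR-96-5p was at 351 CPM there, 28.2 CPM in AM132 5 and at most 16.15 CPM in the other 6. MiR-183-5p was at 1178 CPM in AM132 6 and 118 CPM in AM132 5, but another AM132 library reached 128 CPM, so AM132 5 did not stand apart in this member. MiR-148a-3p, the most abundant of these and known as a regulator of hepatic cholesterol uptake, reached 162314 CPM in AM132 6, against 12778 to 21873 CPM in the other 7 and 12295 to 15094 CPM in RCD. The summed level of the pituitary list, which also holds the abundant neuronal miR-7a-5p, overlapped between the groups (137512 to 183926 CPM in AM132 and 124602 to 148878 CPM in RCD). The 9 tested members other than the miR-7 arms summed to 26397 CPM in AM132 6, 2316 CPM in AM132 5, 174 to 620 CPM in the other 6 and 227 to 502 CPM in RCD, so these too overlapped outside AM132 6 and AM132 5.

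The 4 tested muscle miRNAs summed to 3771 CPM in AM132 6, to 446 to 663 CPM in the other AM132 libraries, and to 456 to 590 CPM in RCD. All 4 had higher fitted levels, with a median of 0.56, and 2 of 4 when the libraries were scaled on both tables together. Without AM132 6 the median was 0.04. The 3 Hox-linked miRNAs, which mark tissue behind the forebrain, summed to 538 CPM in AM132 6, 119 to 174 CPM in the other AM132 libraries and 115 to 170 CPM in RCD. The 7 myeloid and inflammatory miRNAs summed to 20230 CPM in AM132 6 and to 10002 to 11145 CPM in the other 7, against 10021 to 10847 CPM in RCD. Of these 7 members 5 had higher fitted levels, with a median of 0.11, which was -0.05 without AM132 6. MiR-146b-5p, a brake on inflammatory signalling, was at 2209 ± 228 CPM (SD, n = 8) against 1945 ± 70.3 CPM (SD, n = 4), a fold change of 0.18 (SE 0.08, edgeR adjusted p = 0.488). The 6 endothelial and mural miRNAs summed to 35419 CPM in AM132 6, 18179 to 24617 CPM in the other 7 and 18027 to 28596 CPM in RCD. Of these 6 members 5 had higher fitted levels, with a median of 0.12, which was -0.05 without AM132 6. In such tissue samples fewer cells of a type and less RNA per cell cannot be told apart.

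**Figure D4:**
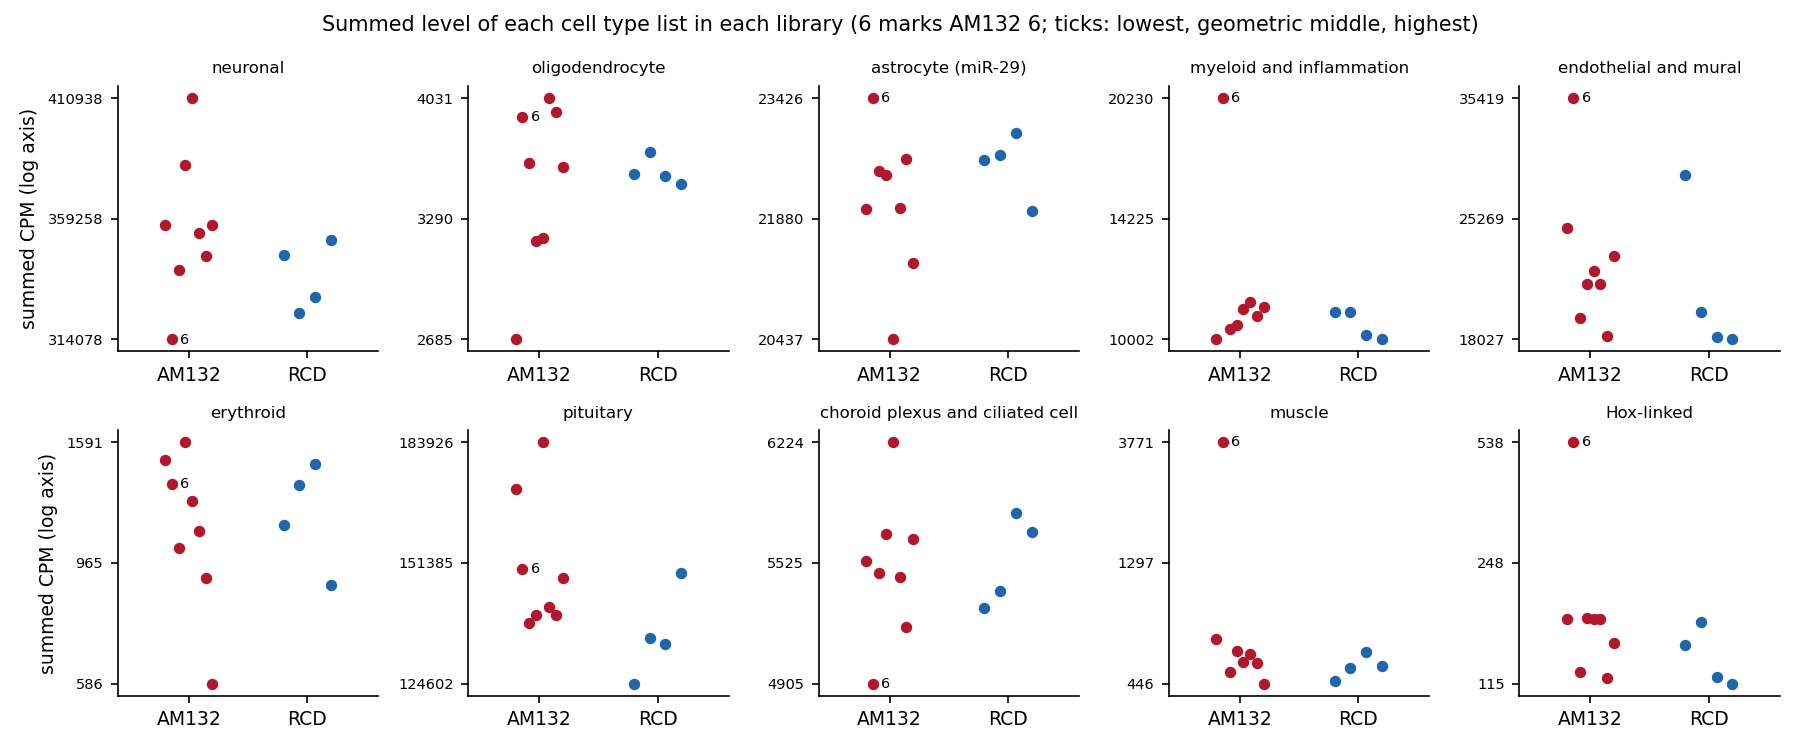
Summed level (CPM, log axis, with ticks at the lowest, the geometric middle and the highest value) of 10 cell type lists in each AM132 and RCD library, with AM132 6 marked. AM132 6 is the highest library of the myeloid, muscle, Hox-linked, endothelial and mural, and astrocyte panels, at 3771 CPM for muscle. It is the lowest of the neuronal and choroid plexus panels.

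Lists of other brain cells gave small medians of both signs. The 7 miR-29 members, which are enriched in astrocytes, had a median of -0.07, with 2 higher and 5 lower. Of 7 oligodendrocyte miRNAs 2 were higher and 5 lower, with a median of -0.01. Of 6 erythroid miRNAs 2 were higher and 4 lower, and miR-486a-3p was at 4.88 ± 1.47 CPM (SD, n = 8) against 7.79 ± 3.15 CPM (SD, n = 4). The erythroid sums were 586 to 1591 CPM in AM132 and 882 to 1454 CPM in RCD, so blood miRNAs overlapped between the groups. The 10 tested miR-30 members had a median of 0.02, and the 15 of the miR-17/92 clusters 0.02, and with scaling on both tables these medians were -0.02 and -0.06. Without AM132 6 the miR-17/92 median was -0.14. No list held a call in edgeR with all libraries.

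The tRF table was much shallower than the miRNA table. TRF counts were 2.37 ± 0.587% of the miRNA counts in AM132 (SD, n = 8) and 2.54 ± 0.810% in RCD (SD, n = 4), with p = 0.679 (exact permutation test, two-sided). Of 17051 listed fragments 575 had enough counts to be tested. EdgeR called 0 of 575 (0% called), with 21 (3.65%) at an unadjusted p under 0.05, 15 higher (2.61%) and 6 lower (1.04%), and the smallest adjusted p was 0.994. DESeq2 also called 0, with 18 at an unadjusted p under 0.05. In simulated counts of this design 13.86% of the tRFs changed by a log2 value of 1 were recovered, and 0% of those changed by 0.5. As for the miRNAs, these percentages cannot be carried over to the real table. Its 0 calls do not exclude changes of these sizes. Fold changes were above 0 for 324 of 575 (56.3%) with TMM scaling, for 206 (35.8%) with the relative log expression (RLE) scaling and for 230 with scaling on both tables. With AM608 left out, 516 tRFs had enough counts, 0 were called by edgeR, 9 had an unadjusted p under 0.05, and the median fold change was -0.03. The median over all tRFs moved with the scaling from 0.06 to -0.15, and the medians of groups of fragments below are given beside it.

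The fragments on which the tRF results turn are shown from the deposited table, 5′ to 3′. The first 3 are among the 10 of smallest p, the lysine pair is shown because it differs in 1 base, with the 24 shared bases ahead of it in capitals, and the 3 histidine fragments because they share the 20 bases in capitals.
tRF-46-VIJMRPFQJDZXHY13KK0: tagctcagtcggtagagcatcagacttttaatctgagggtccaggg
tRF-40-YDLBRY73W0K5KKOV: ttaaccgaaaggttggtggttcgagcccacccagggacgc
tRF-32-P4R8YP9LON4V3: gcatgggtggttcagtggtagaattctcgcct
tRF-31-6XQ6S8V0J8O9E: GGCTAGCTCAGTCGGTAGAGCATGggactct
tRF-31-6XQ6S8V0JUO9E: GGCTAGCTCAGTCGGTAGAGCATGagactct
tRF-21-FSXMSL73E: aGCCGTGATCGTATAGTGGTT
tRF-27-XSXMSL73VL3: tGCCGTGATCGTATAGTGGTTagtact
tRF-31-XSXMSL73VL4YD: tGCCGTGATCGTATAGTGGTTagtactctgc

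The fragment tRF-40-YDLBRY73W0K5KKOV, a 3′-half of the asparagine transfer RNA AsnGTT, was the 1 tRF (0.174%) with all AM132 libraries above all RCD libraries. It was at 1009, 880, 1223, 1090, 857, 947, 1464 and 994 CPM in AM132 5 to 12, and at 704, 741, 547 and 653 CPM in RCD 9 to 12. The groups did not overlap, and AM132 9 came nearest to RCD. The fold change was 0.68 (SE 0.25, edgeR adjusted p = 0.994) and 0.50 with RLE scaling. The AM608 libraries were at 1054 ± 385 CPM (SD, n = 8), a fold change of 0.67 against the same RCD libraries. No tRF (0% of those tested) had all AM132 libraries below all RCD libraries.

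The smallest p was that of tRF-46-VIJMRPFQJDZXHY13KK0, an internal fragment of LysTTT. It ranged from 108 to 275 CPM in AM132 with a median of 199 CPM, and was 367, 400, 225 and 292 CPM in RCD 9 to 12. All 8 AM132 libraries lay below the RCD mean, but the ranges overlapped through RCD 11. The fold change was -0.68 (SE 0.24, edgeR adjusted p = 0.994). The GlyGCC 5′-half tRF-32-P4R8YP9LON4V3 was at 789 ± 305 CPM (SD, n = 8) against 1285 ± 236 CPM (SD, n = 4), a fold change of -0.70 (SE 0.28, edgeR adjusted p = 0.994). Its AM608 fold change against RCD was -1.09 (SE 0.28, edgeR adjusted p = 0.402). Also among the 10 of smallest p, 3′-tRFs of GluTTC (tRF-50-8Y7Z2R1HPSR9O9337KB6) and ArgACG (tRF-26-1NLI38NJW1B) had fold changes of 1.96 (SE 0.75) and 0.91 (SE 0.37). The GlnCTG 5′-tRF tRF-50-R9J89O9NF5W8E7OMJHHS had 1.18 (SE 0.47). The internal fragments tRF-36-UD10H7RNLEKPM4D and tRF-16-MBQ4NKD had 0.63 (SE 0.25) and 0.43 (SE 0.18), and tRF-19-2S3HPS2E had -0.74 (SE 0.31). Each was at edgeR adjusted p = 0.994, and the groups overlapped in each.

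The 2 LysCTT internal fragments differ by G25A, counted from the 5′ end of the fragment, and were both highest in the lean libraries RCD 11 and RCD 12. The fragment tRF-31-6XQ6S8V0J8O9E was at 21.2 to 157 CPM in AM132 and at 14.7, 23.5, 691 and 320 CPM in RCD 9 to 12. RCD 11 and RCD 12 stood above all AM132 libraries, whereas RCD 9 stood below all of them and RCD 10 below all but AM132 12. The fold change was -1.89 (SE 0.71, edgeR adjusted p = 0.994), -0.90 without RCD 11 and -1.83 without RCD 12. With AM608 left out of the fit this fragment did not have enough counts to be tested. With no filter on low counts it was -2.0 and passed the threshold (edgeR adjusted p = 0.0364). The fragment tRF-31-6XQ6S8V0JUO9E was at 47.9 to 702 CPM in AM132 and at 103, 82.3, 2684 and 1075 CPM in RCD 9 to 12. Its fold change was -1.71 (SE 0.80, edgeR adjusted p = 0.994), -0.59 without RCD 11 and -1.70 without RCD 12.

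The series' title also names lysine tRNA fragments. Lysine fragments made up 51.3 ± 9.99% of tRF counts in AM132 (SD, n = 8) and 46.99 ± 6.01% in RCD (SD, n = 4), with p = 0.44 and 0.97 after adjustment over 8 amino acids (exact permutation test, two-sided). The shares in RCD 9 to 12 were 49.6, 41.5, 54.2 and 42.6%, and the 8 AM132 libraries ranged from 36.1 to 61.8%, so the groups overlapped. Of 123 tested lysine fragments 43 had higher and 80 lower fitted levels, with a median of -0.17. With RLE scaling the counts were 22 and 101, and the median was -0.42. Below the median of all tRFs, the lysine median lay by -0.22 with TMM and -0.27 with RLE.

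The LysCTT fragments are given by type, and the differences between types were not tested. Of 26 LysCTT 5′-tRFs 20 were higher with TMM, with a median of 0.25, and 15 with RLE, with a median of 0.05. Of 8 LysCTT 5′-halves 2 were higher and 6 lower, with a median of -0.30, and 0 were higher with RLE. Of 53 LysCTT internal fragments 11 were higher and 42 lower, with a median of -0.49, and 4 were higher with RLE. In RCD 9 to 12 all LysCTT internal fragments, tested or not, took 2.69, 0.80, 18.9 and 18.8% of tRF counts. They took 0.73 to 12.6% in AM132. RCD 11 and RCD 12 stood above all AM132 libraries, and RCD 9 and RCD 10 within the AM132 range. Relative to the median of all tRFs, the medians of 5′-tRFs, 5′-halves and internal fragments were 0.19, -0.36 and -0.55 with TMM. With RLE they were 0.20, -0.37 and -0.62. The most abundant tRF of all, the 50-base LysCTT 5′-tRF tRF-50-PSQP4PW3FJIKE7UMKKSW, was at 295808 ± 136060 CPM (SD, n = 8) against 176903 ± 104733 CPM (SD, n = 4). Its fold change was 0.74 (SE 0.65, edgeR adjusted p = 0.994), within the spread between libraries.

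Histidine fragments were also counted by type. All 16 tested HisGTG 5′-tRFs had higher fitted levels with TMM, with a median of 0.44, and 14 of 16 with RLE, with a median of 0.26. These fragments overlap in sequence, so they are not 16 separate measurements. The fragment tRF-27-XSXMSL73VL3 was at 156 ± 58.7 CPM (SD, n = 8) against 88.7 ± 22.01 CPM (SD, n = 4), a fold change of 0.80 (SE 0.35, edgeR adjusted p = 0.994). The shorter tRF-21-FSXMSL73E was at 120 ± 39.96 CPM against 78.0 ± 26.9 CPM, and tRF-31-XSXMSL73VL4YD at 133 ± 70.3 CPM against 74.1 ± 13.9 CPM (SD, n = 8 and 4). Of 16 HisGTG internal fragments 6 were higher and 10 lower with TMM, with a median of -0.29. With RLE 1 was higher and 15 lower, with a median of -0.56. In RCD 9 to 12 all HisGTG internal fragments, tested or not, took 0.516, 0.194, 2.01 and 2.35% of tRF counts. They took 0.242 to 1.95% in AM132. Relative to the median of all tRFs, the HisGTG medians were 0.38 for 5′-tRFs and -0.35 for internal fragments with TMM. With RLE they were 0.40 and -0.41. The difference between the types was not tested.

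By type, 80 of 122 tested 5′-tRFs had higher fitted levels (60 with RLE) and 34 of 51 5′-halves had lower ones (46 with RLE). Relative to the median of all tRFs, their medians were 0.11 and -0.18 with TMM, and 0.12 and -0.18 with RLE. The share of 5′-tRFs in all tRF counts was 47.8 ± 12.4% in AM132 (SD, n = 8) and 38.7 ± 16.3% in RCD (SD, n = 4), with p = 0.283 and 0.646 after adjustment over 5 types (exact permutation test, two-sided). Internal fragments took 28.02 ± 7.25% and 33.7 ± 15.9%, and 5′-halves 17.9 ± 6.76% and 21.4 ± 2.21% (SD, n = 8 and 4). In internal fragments the lean libraries differed among themselves by more than the group means did. They took 22.2 and 18.2% in RCD 9 and RCD 10, and 44.4 and 50.1% in RCD 11 and RCD 12, and these last 2 were also the deepest tRF libraries. In AM132 the highest share, 40.3%, was that of AM132 9, the shallowest tRF library of that group (70324 counts). The deepest, AM132 10 (125910 counts), took 29.2%. The part of depth in these shares was not tested. None of the 8 amino acid and 5 type shares differed at an adjusted p under 0.05.

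**Figure D5:**
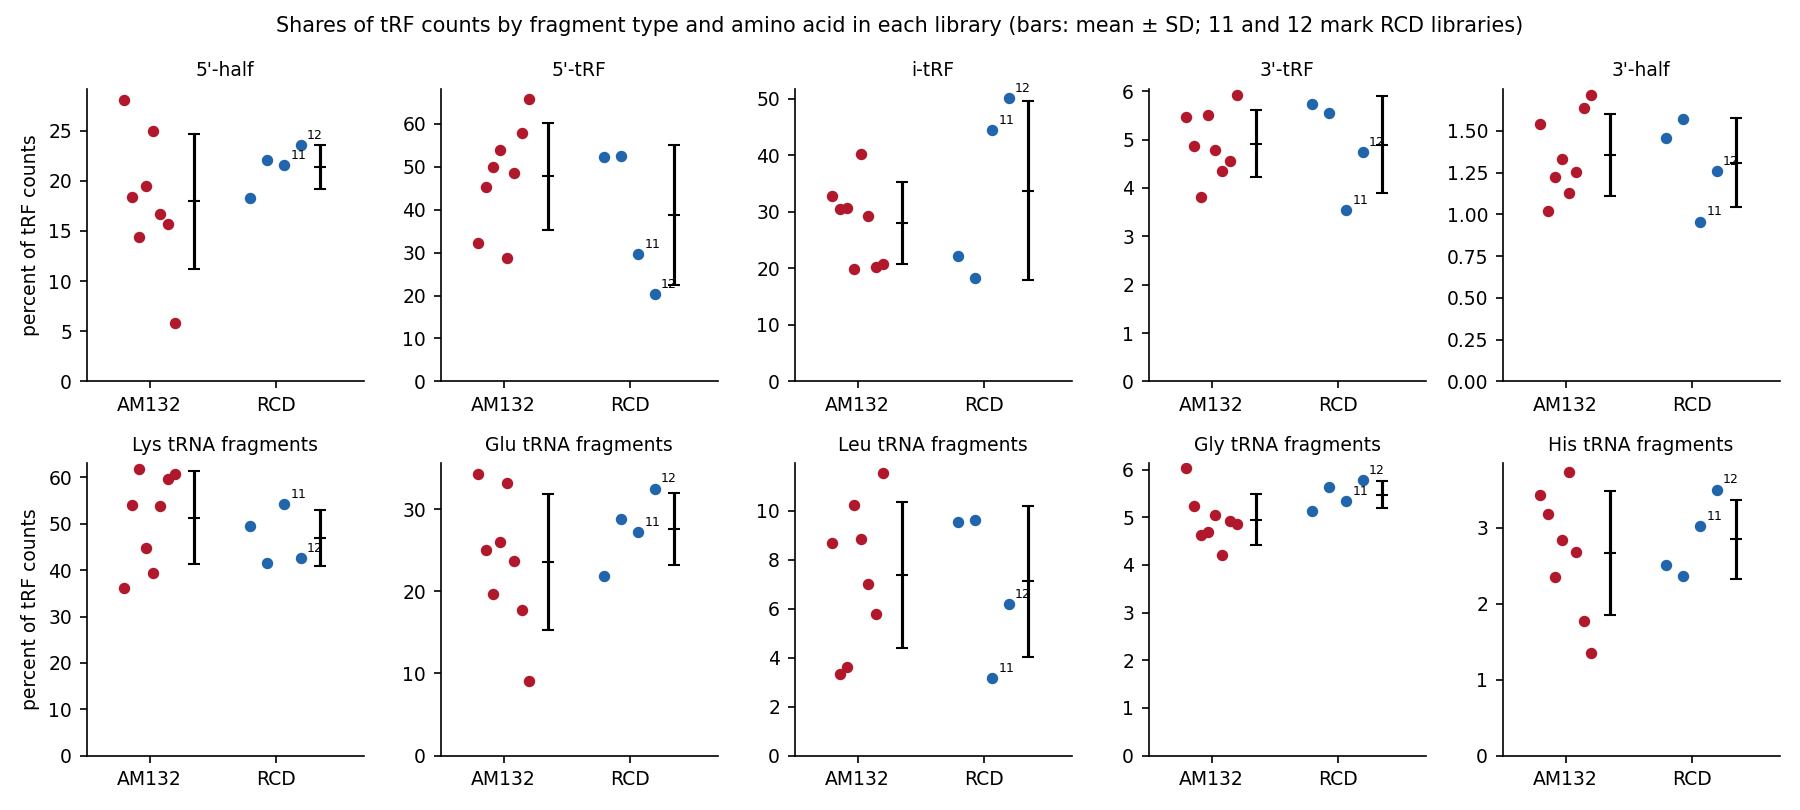
Share of tRF counts (percent) by fragment type (top) and for 5 amino acids (bottom) in each AM132 and RCD library, as points, with the mean and SD as bars; RCD 11 and RCD 12 are numbered. The groups overlap in every panel, and RCD 11 and RCD 12, at 44.4 and 50.1%, hold the most internal fragments.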

How the data were processed

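Small RNA from hypothalamus was extracted with the miRNeasy kit, had an RNA integrity number above 8.4 per the labels' protocols, and was made into NEBNext small RNA libraries from 200 ng for a NextSeq 500 run. Both tables, of mature miRNAs and of tRFs, hold whole-number read counts as deposited by the authors, without normalization; trimming, alignment, reference and counting rules are not given in the sources used here. All columns were matched to labels, and 0 columns belonged to other samples. The tRF table lists locations on chromosomes 20, 21 or 22 for 21 of 575 tested fragments, numbers the mouse genome lacks, so no tRF location is given.

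Counts were tested with edgeR 4.0.16 (R 4.3.3) by the quasi-likelihood test on the 20 batch 2 libraries in 3 groups, after filterByExpr (minimum count 10, total 15) and TMM scaling, with Benjamini-Hochberg adjustment over each table and a threshold of 0.05. Tested features held 99.97% of miRNA and 94.67% of tRF counts. Log2 CPM used a prior count of 2, and arm ratios an offset of 0.5 counts. DESeq2 1.42.0, limma 3.58.1 with voom weights, other scalings and filters, and leaving out libraries were alternatives. Single values were tested by exact permutation over libraries. The edgeR script was tested on simulated data. Members, lists and tests were chosen with earlier results of these data known. A set of named features was drawn up by rule. It held the 10 of smallest p in each table with a mean of at least 10 CPM. All tested arms of the miR-132/212 and miR-192/194/215 groups were in it, and the 2 members of smallest p of each other list. The 3 fragments of smallest p for lysine, glutamate, glycine, histidine and valine completed it. Not all members of this set are described here. Other miRNAs and tRFs given by name were chosen after their values were seen. Of 599 tested miRNAs 510 matched a RefSeq mature sequence by name. No 2 libraries of a group agreed within sampling noise.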

Additional observations from a re-analysis of the deposited data

Results flagged for a closer look

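A sample was picked out where its gap to the nearest other library of its group was large for the group's range (Dixon's test). This was applied to 170 sets of values, and chance picks out about 5% of sets. It picked out 19 values, of which 15 were those of AM132 6.

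In AM132 6, miR-132-3p was lowest, at 74.3 CPM, and the log2 ratio of the miR-132 arms was -3.87. Its miR-34c arm ratio was the highest of the group, at -3.7. Epithelial miRNAs were highest there, with miR-200b-3p at 7859 CPM and miR-96-5p at 351 CPM. MiR-148a-3p, at 162314 CPM, and the liver and gut miRNAs miR-192-5p, at 409 CPM, and miR-194-5p, at 454 CPM, were also highest there. Among miRNAs of muscle and vessel walls, AM132 6 held 3351 CPM of miR-1a-3p, 285 CPM of miR-133a-3p and 19333 CPM of miR-143-3p. The Hox-linked miR-10a-5p and miR-10b-5p stood at 226 and 308 CPM. Let-7a-5p, at 18952 CPM, and miR-30a-5p, at 9960 CPM, were the last of these.

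In AM132 9 miR-146b-5p was highest, at 2695 CPM. In the lean group miR-143-3p was highest in RCD 9, at 9792 CPM, miR-194-5p lowest in RCD 12, at 322 CPM, and the glutamate fragment tRF-19-2S3HPS2E lowest in RCD 11, at 161 CPM.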

How the results depend on the processing

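The call of miR-132-3p turned on AM132 6. With each library left out in turn, edgeR called 0 to 1 miRNAs, the 1 being miR-132-3p without AM132 6, and 1 without AM132 6, AM132 5 and AM608 5 (an alternative added after seeing the data). Limma called 0 to 1 arm ratios, the 1 being miR-132 without AM132 6, and 2 without those 3 libraries, miR-132 and miR-543. EdgeR called 1 tRF with no low-count filter (LysCTT tRF-31-6XQ6S8V0J8O9E) and 0 tRFs with any library left out. Replicate numbers 9 to 12 occur in both groups. Same-numbered libraries deviated together (correlation over 0.1) in 2 of 4 miRNA and 0 of 4 tRF pairs. Libraries of different number did so in 3 of 12 miRNA and 8 of 12 tRF pairs. With 4 pairs these values cannot decide whether the numbers pair the libraries, and the main tests treated them as unpaired. With the replicate block, the miR-132-3p difference was -0.63 and its arm ratio difference -0.57, both with an exact permutation p of 0.125, the smallest 4 pairs allow, and edgeR called 0 in both tables. Without AM132 6 and AM132 5 the 3′-tRF share differed by -0.0704 percentage points. With each library left out, the differences ranged from -1.09 to -0.66 for miR-132-3p, from -0.437 to 0.298 percentage points for the 3′-tRF share (main 0.0154), from -0.0723 to 0.132 for the 3′-half share, and from -0.358 to 0.219 for tRF counts as a percent of miRNA counts. The edgeR fold changes ranged from -0.0107 to 0.0882 for miR-212-5p, from -0.00260 to 0.71 for miR-143-3p and from -0.26 to 0.0597 for miR-451a. MiR-32-5p was -0.000785 with the replicate block. Without the 3 libraries miR-143-3p was -0.22 and miR-133a-3p -0.10. The causes of these changes were not tested. Of the other fold changes of named features, 1418 kept direction and call and 3 passed the threshold where the main value did not, the 2 of miR-132-3p and the 1 of the lysine fragment given above. Of the list medians 16 moved by more than the spread and 446 did not.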
